A study of Mus musculus with 15 samples.

Results

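Genes of cholesterol and fatty acid synthesis were followed across the colon of mice in 3 groups. The set holds 29 genes, chosen by symbol from the 22063 rows of the deposited table: 21 of the sterol arm, which makes cholesterol, and 8 of the lipogenic arm, which makes fatty acids. Each symbol was found in 1 row, and all 29 passed the filter on low values that left 12917 genes to test. The libraries came from colon of C57BL/6 mice labelled wild type, with 5 libraries a group. The WMW-H group carries the treatment label WMW-H, which the series' text places in the colorectal cancer model and links to Wumei Wan, a herbal formula. The AOM/DSS group is that model, named for azoxymethane, a carcinogen, and dextran sulfate sodium, which injures the colon epithelium. The Control group was labelled as control. The sources used here give no age, sex, dose, time or meaning of the letter H, and the label of the WMW-H group does not itself name AOM or DSS. The study set out to observe what WMW-H does in the model, so the comparisons are AOM/DSS versus Control, WMW-H versus AOM/DSS and WMW-H versus Control.

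Cells build cholesterol from acetyl-CoA through mevalonate, isoprenoid units, squalene and lanosterol, and build fatty acids from the same acetyl-CoA through malonyl-CoA. Both arms are under the control of SREBP transcription factors, held in the endoplasmic reticulum when sterols are plentiful and cut loose in the Golgi when sterols run low. The factor encoded by Srebf2 acts mainly on sterol genes and the one encoded by Srebf1 mainly on fatty acid genes. In the colon both arms serve the membranes of a rapidly renewing epithelium.

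Expression was deposited as FPKM, fragments scaled to transcript length and library depth, so levels of different genes can be set side by side. The steps between low values placed the depth of the libraries at 16320000 to 21090000 fragments. Libraries of 1 group were close together, with a median coefficient of variation of 4.98% in WMW-H, 3.41% in AOM/DSS and 3.65% in Control over well covered genes. The labels do not say that the libraries of a group came from separate animals, so p-values measure the spread between these libraries, which may be technical. The cell type label reads colon epithelium, and 10 of 10 epithelial markers were detected, at a summed level of 7165 to 7626 FPKM in WMW-H, 8545 to 8710 FPKM in AOM/DSS and 8535 to 8620 FPKM in Control. Markers of smooth muscle (2035 to 2150, 2044 to 2110 and 2024 to 2086 FPKM in WMW-H, AOM/DSS and Control), fibroblasts and macrophages were present too, so the libraries hold more than epithelium. Other tissue also differed between groups: pancreatic acinar markers summed to 10115 to 10586 FPKM in WMW-H, 5752 to 5929 FPKM in AOM/DSS and 26324 to 27001 FPKM in Control. Male accessory gland markers summed to 0 to 4.62 FPKM in WMW-H, 2767 to 2905 FPKM in AOM/DSS and 0 to 3.83 FPKM in Control. With totals made equal after removal of pancreatic, accessory gland and Paneth cell genes, 83 of 87 member calls stayed as they were. This rescaling cannot remove RNA of member genes that came from those tissues. The part of pancreas and accessory gland in the member changes was not tested. In bulk tissue, fewer cells of a type and less RNA per cell cannot be told apart.

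In AOM/DSS colon most sterol genes were lower and most lipogenic genes higher than in Control colon. Of the 21 sterol genes 13 fell and 4 rose, while 20.6% of all tested genes fell and 45.5% rose (66.1% in either direction) at an adjusted p under 0.05 in limma. Of the 8 lipogenic genes 6 rose and 0 fell by limma's adjusted p; 1, Elovl6, fell at an unadjusted p under 0.05, and 0 by an exact rank-sum test. The median log2 change was -0.15 for the sterol arm and 0.39 for the lipogenic arm, beside 0.12 over all genes tested, so relative to all genes the arms stood at -0.27 and 0.28. The groups did not overlap for 16 of 21 sterol and 6 of 8 lipogenic genes, where 52.9% of all genes did not. The genes that fell included Idi1 and Msmo1, and those that rose included Scd1 and Fasn, each described with its values below. Under 2 other scalings, median-of-ratios and quantile, 2 sterol genes rose instead of 4, because Mvd and Srebf2 were no longer called. The count of falls also grew, since Fdft1, Hsd17b7 and Insig1 were called lower under both. After rescaling to TPM, which gives every library the same total, the count of falls shrank instead. Acat2 and Nsdhl were then no longer called lower (adjusted p = 0.074 and 0.152 in limma). The count of 0 falls in the lipogenic arm also depends on the scaling, since 2 lipogenic genes, Acly and Elovl6, were called lower with median-of-ratios and 1, Elovl6, with quantile scaling.

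In WMW-H colon the arms stood the other way round relative to AOM/DSS colon. Of the 21 sterol genes 12 rose and 7 fell, where 25.9% of all tested genes rose and 40.9% fell (66.8% in either direction). Of the 8 lipogenic genes 1 rose, Elovl6, and 6 fell. The median log2 change was 0.11 for the sterol arm and -0.52 for the lipogenic arm, beside -0.07 over all genes. Relative to all genes, these came to 0.18 and -0.44. The groups did not overlap for 17 of 21 sterol and 7 of 8 lipogenic genes, against 51.2% of all genes. The rises of Fdft1 and Nsdhl were not called after rescaling to TPM, or with equal totals without pancreatic, accessory gland and Paneth cell genes. With TPM, Acat2 was also called lower (adjusted p = 0.0452 in limma), and with quantile scaling Mvk was called higher (adjusted p = 0.0282). This comparison and the one above share the AOM/DSS libraries, so their results are not independent of each other, and the values of all 3 groups are given side by side.

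WMW-H colon was not the same as Control colon in either arm. Of the sterol genes 6 rose and 9 fell, and of the lipogenic genes 4 rose and 4 fell, where 35.4% of all genes rose and 24.1% fell (59.5% in either direction). The medians lay at 0.00 for the sterol arm and -0.09 for the lipogenic arm, beside 0.05 over all genes. Groups did not overlap for 16 of 21 sterol and 6 of 8 lipogenic genes, against 42.3% of all genes. Under median-of-ratios scaling 2 lipogenic genes rose instead of 4, because the calls of Scd2 and Elovl6 were lost.

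**Figure D1:**
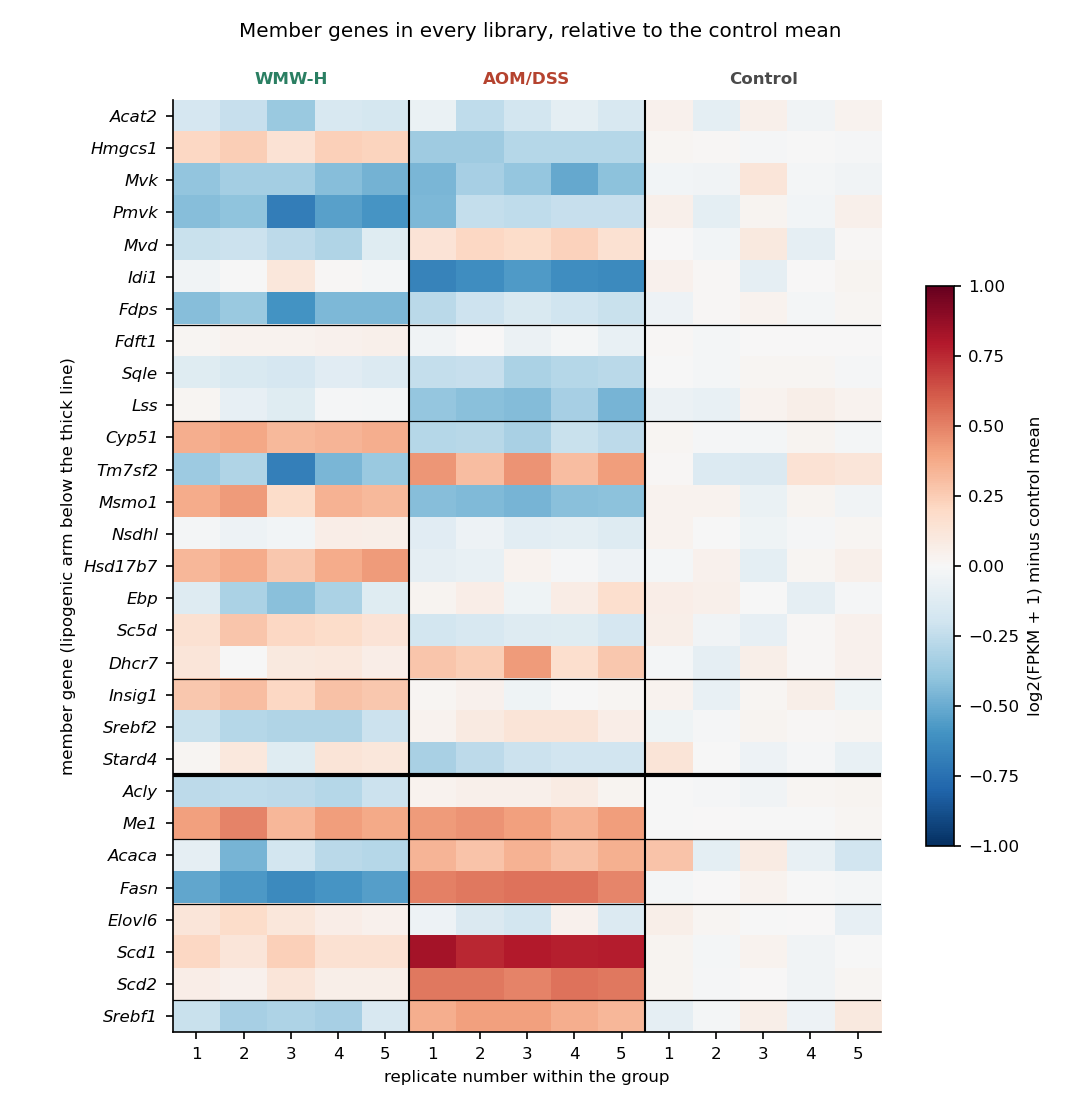
Each row is a member gene and each column a library, 5 of WMW-H, 5 of AOM/DSS and 5 of Control from left to right; colour gives log2(FPKM + 1) minus the mean of the Control libraries, with thin lines between role groups and the thick line between the sterol and the lipogenic arm. Fasn is below the Control mean in all WMW-H libraries and above it in all AOM/DSS libraries, and Cyp51 and Msmo1 show the opposite.

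**Figure D2:**
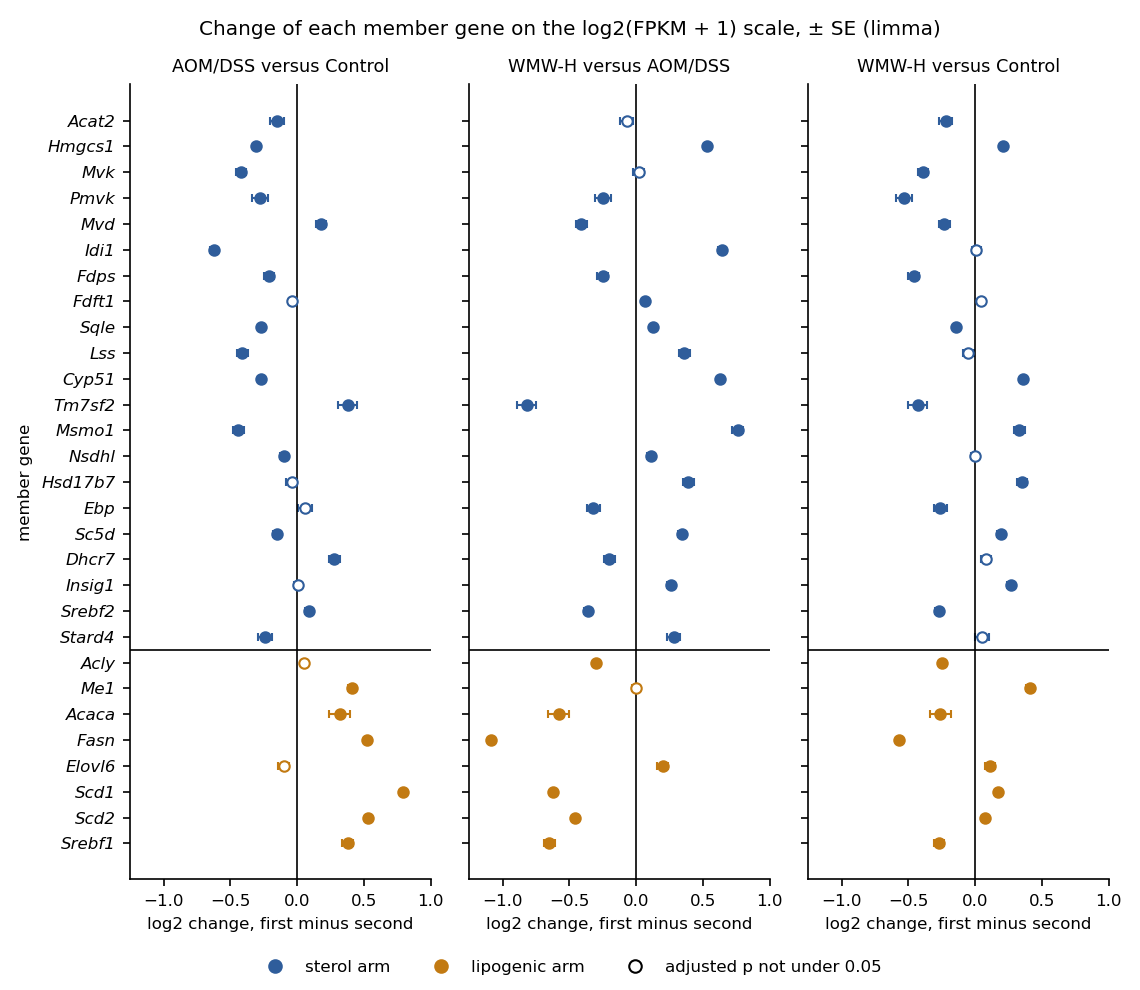
Points are the log2 change of each member gene on the log2(FPKM + 1) scale with its standard error from limma, in 3 panels with the first named group minus the second; open points have an adjusted p that is not under 0.05. Lipogenic changes run between -0.10 and 0.79 in AOM/DSS versus Control and between -1.09 and 0.20 in WMW-H versus AOM/DSS. The sign turned in at least 1 alternative scaling for Acly, Ebp, Fdft1, Hsd17b7, Insig1 and Srebf2 in the first panel. It also turned for Acat2, Me1 and Mvk in the second, and for Fdft1, Idi1, Nsdhl and, at -0.00, Stard4 in the third.

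The first steps of the sterol arm turn acetyl-CoA into mevalonate and then into isoprenoid units. Of its 7 genes, 1 rose and 6 fell in AOM/DSS versus Control, where 45.5% of all genes rose and 20.6% fell. In WMW-H versus AOM/DSS 2 rose and 3 fell, near the 25.9% and 40.9% of all genes. Hmgcs1, which makes HMG-CoA, had 154, 158, 147, 157 and 156 FPKM in WMW-H, 104, 104, 109, 109 and 109 FPKM in AOM/DSS and 135, 134, 132, 133 and 132 FPKM in Control. No library of one group reached into another, with WMW-H highest and AOM/DSS lowest. The log2 change of Hmgcs1 was -0.31 ± 0.02 (SE) in AOM/DSS versus Control (adjusted p = 3.04e-09), 0.53 ± 0.02 in WMW-H versus AOM/DSS (adjusted p = 5.6e-12) and 0.21 ± 0.02 in WMW-H versus Control (adjusted p = 7.42e-07). Idi1, the isomerase that converts isopentenyl diphosphate to dimethylallyl diphosphate, had 60.1, 61.4, 66.4, 61.8 and 60.7 FPKM in WMW-H, 38.3, 39.5, 41.1, 39.5 and 39.2 FPKM in AOM/DSS and 63.3, 61.9, 57.7, 61.7 and 62.8 FPKM in Control. All AOM/DSS libraries lay below the other 10, while the WMW-H and Control libraries overlapped. Idi1 fell by 0.62 on the log2 scale in AOM/DSS versus Control (adjusted p = 2.05e-11) and rose by 0.64 in WMW-H versus AOM/DSS (adjusted p = 2.77e-11), and WMW-H versus Control gave 0.01 (adjusted p = 0.743).

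The kinases and the decarboxylase of this stretch behaved differently from Hmgcs1 and Idi1. Mvk, mevalonate kinase, averaged 29.7 ± 1.2 FPKM in WMW-H, 29.2 ± 1.39 FPKM in AOM/DSS and 39.4 ± 1.91 FPKM in Control (SD, n = 5 each). It fell in AOM/DSS versus Control (log2 change -0.42 ± 0.04, adjusted p = 7.98e-08) and stood at 0.02 in WMW-H versus AOM/DSS (adjusted p = 0.623). Pmvk, phosphomevalonate kinase, had 25.4, 25.9, 21, 23.4 and 22.6 FPKM in WMW-H, 25, 29.1, 28.8, 29.2 and 29.2 FPKM in AOM/DSS and 35.7, 32.2, 35.2, 33.9 and 35.7 FPKM in Control. Control libraries were the highest, and the lowest AOM/DSS library lay within the WMW-H range. Pmvk fell in AOM/DSS versus Control (-0.28, adjusted p = 0.000264) and in WMW-H versus AOM/DSS (-0.25, adjusted p = 0.000885, 0.000147 to 0.0509 over 27 alternatives). Fdps, which makes farnesyl diphosphate, had 141, 147, 125, 139 and 139 FPKM in WMW-H, 157, 164, 171, 165 and 163 FPKM in AOM/DSS and 183, 192, 195, 187 and 193 FPKM in Control. The 3 groups did not overlap, with WMW-H lowest and Control highest. Its log2 change was -0.21 in AOM/DSS versus Control (adjusted p = 5.61e-05), -0.25 in WMW-H versus AOM/DSS (adjusted p = 1.14e-05) and -0.46 in WMW-H versus Control (adjusted p = 9.29e-09). Its exons share 1124 bases with the annotated gene Gm43738 on the same strand, and how reads from the shared bases were divided is not given in the sources used here. Mvd, mevalonate diphosphate decarboxylase, went against its arm, with 37.6, 37.8, 36.6, 35.7 and 40.6 FPKM in WMW-H, 48.7, 51.1, 50.3, 51.9 and 49.3 FPKM in AOM/DSS and 44.3, 43.4, 47.3, 41.3 and 44.6 FPKM in Control. The AOM/DSS libraries were all the highest and the WMW-H libraries all the lowest. Mvd fell by 0.41 in WMW-H versus AOM/DSS (adjusted p = 5.87e-08); its rise of 0.18 in AOM/DSS versus Control (adjusted p = 0.000418) shrank to 0.06 with median-of-ratios scaling and was then not called. Acat2, the cytosolic thiolase that joins acetyl-CoA units, averaged 30.5 ± 1.91 FPKM in WMW-H, 32.0 ± 1.66 FPKM in AOM/DSS and 35.7 ± 1.6 FPKM in Control. It fell in AOM/DSS versus Control (-0.15, adjusted p = 0.00771) and was not called in WMW-H versus AOM/DSS (-0.07, adjusted p = 0.205). After rescaling to TPM both calls of Acat2 changed, to -0.11 and not called (adjusted p = 0.074) and to -0.12 and called lower (adjusted p = 0.0452).

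From farnesyl diphosphate, 3 enzymes lead through squalene to lanosterol, and all 3 rose in WMW-H versus AOM/DSS, where 25.9% of all genes rose. Lss, which closes the sterol rings, had 20.5, 19.0, 18.5, 20.0 and 19.9 FPKM in WMW-H, 15.2, 14.9, 14.7, 15.9 and 14.4 FPKM in AOM/DSS and 19.4, 19.2, 20.8, 21.1 and 20.7 FPKM in Control. All AOM/DSS libraries were below the other 10, and WMW-H and Control overlapped. Lss fell by 0.41 in AOM/DSS versus Control (adjusted p = 7.2e-08) and rose by 0.36 in WMW-H versus AOM/DSS (adjusted p = 3.75e-07). Sqle, squalene epoxidase, had 73.6, 72.2, 71.5, 74.2 and 72.9 FPKM in WMW-H, 67.7, 68.1, 64.2, 65.8 and 66.3 FPKM in AOM/DSS and 79.9, 79.3, 81.4, 81.2 and 79.5 FPKM in Control. The 3 groups were separate, with WMW-H between the others. Sqle fell by 0.27 in AOM/DSS versus Control (adjusted p = 1.02e-08), rose by 0.13 in WMW-H versus AOM/DSS (adjusted p = 5.36e-05) and stayed 0.14 lower in WMW-H than in Control (adjusted p = 4.66e-05). Fdft1, squalene synthase, hardly moved, at 72.4 ± 0.593 FPKM in WMW-H, 68.7 ± 1.43 FPKM in AOM/DSS and 70.5 ± 0.503 FPKM in Control. Its log2 change of 0.07 in WMW-H versus AOM/DSS was called (adjusted p = 0.00376), but was 0.02 and not called after rescaling to TPM (adjusted p = 0.37). Its exons share 774 bases with Ctsb on the other strand in libraries whose kit does not mark strand. The same limit holds for Hmgcs1 (557 bases shared with Gm48342), Lss (381 with 4930483K19Rik), Idi1 (323 with Gm48574) and Cyp51 (166 with Akap9). In the lipogenic arm it holds for Srebf1 (109 with Rai1), Elovl6 (34 with Gm35986) and Me1 (30 with A330041J22Rik).

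The last 8 genes take lanosterol to cholesterol, and of these 2 rose and 4 fell in AOM/DSS versus Control, where 45.5% of all genes rose and 20.6% fell. In WMW-H versus AOM/DSS 5 rose and 3 fell, beside 25.9% and 40.9% of all genes. Msmo1, the sterol-C4-methyl oxidase, had 131, 136, 115, 129 and 127 FPKM in WMW-H, 74.9, 74.2, 73.1, 75.3 and 75.9 FPKM in AOM/DSS and 104, 104, 96.4, 103 and 98.9 FPKM in Control. The groups were separate, WMW-H highest and AOM/DSS lowest, with WMW-H replicate 3 the nearest to Control. Msmo1 fell by 0.44 in AOM/DSS versus Control (adjusted p = 1.31e-08), and rose by 0.76 in WMW-H versus AOM/DSS (adjusted p = 1.3e-11) and by 0.33 in WMW-H versus Control (adjusted p = 7.95e-07). Cyp51, the lanosterol demethylase, had 72.7, 74.0, 70.8, 71.7 and 72.7 FPKM in WMW-H, 46.1, 46.3, 44.8, 48.1 and 46.7 FPKM in AOM/DSS and 57.2, 55.8, 55.6, 57.5 and 55.4 FPKM in Control. It showed the same order without overlap. Cyp51 was 1.56-fold higher in WMW-H than in AOM/DSS by the ratio of mean FPKM (log2 change 0.63 ± 0.02, adjusted p = 7e-13) and 1.29-fold higher than in Control (0.36 ± 0.02, adjusted p = 1.37e-09). In AOM/DSS versus Control it fell by 0.27 (adjusted p = 2.41e-08). Sc5d, the sterol desaturase, averaged 43.5 ± 1.71 FPKM in WMW-H, 34.1 ± 0.668 FPKM in AOM/DSS and 38.0 ± 1.55 FPKM in Control, again with 3 separate groups in that order. Hsd17b7, a ketosteroid reductase of the same stretch, averaged 11.5 ± 0.478 FPKM in WMW-H, 8.51 ± 0.326 FPKM in AOM/DSS and 8.77 ± 0.397 FPKM in Control. It rose in WMW-H versus AOM/DSS (0.39, adjusted p = 3.88e-07) and versus Control (0.35, adjusted p = 1.82e-06), and was not called in AOM/DSS versus Control (-0.04, adjusted p = 0.439). Nsdhl, the dehydrogenase that works with Msmo1, averaged 35.4 ± 1.34 FPKM in WMW-H, 32.8 ± 0.722 FPKM in AOM/DSS and 35.3 ± 0.794 FPKM in Control. Its log2 changes of -0.10 in AOM/DSS versus Control (adjusted p = 0.00642) and 0.11 in WMW-H versus AOM/DSS (adjusted p = 0.00481) were called, and both calls were lost after rescaling to TPM.

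Tm7sf2, Ebp and Dhcr7, enzymes of the same stretch, moved against the arm. Tm7sf2, a sterol reductase, had 16.6, 17.4, 13.1, 15.5 and 16.5 FPKM in WMW-H, 29.7, 27.1, 29.9, 27.1 and 29.2 FPKM in AOM/DSS and 21.9, 19.6, 19.5, 24.0 and 23.7 FPKM in Control. All AOM/DSS libraries were the highest and all WMW-H libraries the lowest. Tm7sf2 rose by 0.38 ± 0.07 in AOM/DSS versus Control (adjusted p = 0.000153) and fell by 0.82 ± 0.07 in WMW-H versus AOM/DSS (adjusted p = 2.82e-08). It shares 532 exon bases with Vps51 on the same strand, and how the reads were divided is not given in the sources used here. Dhcr7, which makes cholesterol from its direct precursor, had 71.4, 65.5, 70.3, 70.6 and 68.9 FPKM in WMW-H, 79.9, 78.1, 88.4, 74.0 and 79.1 FPKM in AOM/DSS and 64.6, 61.5, 68.4, 66.0 and 67.7 FPKM in Control. The AOM/DSS libraries lay above the other 10, where WMW-H and Control overlapped. Dhcr7 rose by 0.28 in AOM/DSS versus Control (adjusted p = 1.56e-05) and fell by 0.20 in WMW-H versus AOM/DSS (adjusted p = 0.000427). Ebp, the sterol isomerase, had 42.4, 37.1, 34.5, 37.2 and 42.7 FPKM in WMW-H, 47.3, 48.8, 45.1, 48.9 and 52.5 FPKM in AOM/DSS and 48.7, 48.1, 46.3, 43.6 and 46.0 FPKM in Control. All WMW-H libraries were the lowest, while AOM/DSS and Control overlapped. Ebp fell in WMW-H versus AOM/DSS (-0.32, adjusted p = 7.12e-05) and was not called in AOM/DSS versus Control (0.06, adjusted p = 0.372).

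The sterol arm also holds its own regulator, a brake and a carrier. Srebf2, which encodes the SREBP factor that acts mainly on sterol genes, had 69.1, 66.0, 65.2, 65.2 and 69.5 FPKM in WMW-H, 82.9, 86.2, 88.5, 88.4 and 84.6 FPKM in AOM/DSS and 78.5, 79.9, 82.2, 81.4 and 81.7 FPKM in Control. WMW-H libraries were all the lowest and AOM/DSS libraries all the highest, though AOM/DSS and Control came within 1 FPKM of each other. Srebf2 fell by 0.36 ± 0.03 in WMW-H versus AOM/DSS (adjusted p = 4.28e-09) and by 0.27 in WMW-H versus Control (adjusted p = 2.43e-07). Its rise of 0.09 in AOM/DSS versus Control (adjusted p = 0.00618) turned to -0.03 with median-of-ratios scaling. Insig1, which holds the SREBP complex in the endoplasmic reticulum and is itself an SREBP target, had 60.9, 62.6, 58.1, 61.9 and 61.0 FPKM in WMW-H, 51.1, 52.0, 48.7, 50.3 and 51.1 FPKM in AOM/DSS and 51.7, 47.8, 50.9, 52.5 and 48.8 FPKM in Control. The WMW-H libraries lay above the other 10, which overlapped. Insig1 rose by 0.26 in WMW-H versus AOM/DSS (adjusted p = 8.96e-07) and by 0.27 in WMW-H versus Control (adjusted p = 8.17e-07). In AOM/DSS versus Control it gave 0.01 (adjusted p = 0.807), with -0.11 under median-of-ratios scaling. Stard4, a cytosolic sterol carrier, averaged 40.7 ± 2.96 FPKM in WMW-H, 33.2 ± 1.37 FPKM in AOM/DSS and 39.3 ± 2.28 FPKM in Control. It fell by 0.24 in AOM/DSS versus Control (adjusted p = 0.000479) and rose by 0.28 in WMW-H versus AOM/DSS (adjusted p = 8.43e-05).

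Over all 15 libraries, AOM/DSS lay below the other 10 libraries for 8 sterol genes (Hmgcs1, Idi1, Sqle, Lss, Cyp51, Msmo1, Sc5d and Stard4) and 0 lipogenic genes, where 9.03% of all tested genes had this order. AOM/DSS lay above the other 10 for 4 sterol genes (Mvd, Tm7sf2, Dhcr7 and Srebf2) and 5 lipogenic genes (Acly, Fasn, Scd1, Scd2 and Srebf1), where 22.9% of all genes did. WMW-H lay above the other 10 for 7 sterol genes and 0 lipogenic genes, against 9.48% of all genes. WMW-H lay below them for 5 sterol genes and 3 lipogenic genes, against 9.34% of all genes. Control lay above the other 10 for Mvk, Pmvk, Fdps and Sqle, and below them for Me1, Scd1 and Scd2, where 7.62% and 15.2% of all genes did.

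Promoter sequence was looked at because many sterol genes moved together. RefSeq windows of 300 bases, from 250 before to 50 after a transcript start on GRCm38.p6, were at hand for 17 sterol and 6 lipogenic genes. The sources used here do not name the build behind the deposited values. An SREBP element, searched as TCACNCCAC on both strands, was in the windows of 1 of 17 sterol genes, Hmgcs1, and of 0 of 6 lipogenic genes, and in 1.38% of the 10074 tested genes with a window. With any 1 letter of it free, a choice made after the exact matches had been seen, it was in 9 of 17 sterol genes, 1 of 6 lipogenic genes and 29.2% of tested genes. The box read by NF-Y, a factor known to act beside SREBP, was searched as CCAAT on both strands. It was in 16 of 17 sterol genes, 4 of 6 lipogenic genes and 42.6% of tested genes. The GC box GGGCGG was in 16 of 17 sterol genes, 3 of 6 lipogenic genes and 67.8% of tested genes. The antioxidant response element, searched as TGACNNNGC, was in 4 of 17 sterol genes, 1 of 6 lipogenic genes (Me1) and 16.7% of tested genes. Genes with several windows have more chances of a match; over genes with 1 window, CCAAT was in 14 of 15 sterol genes and 38.9% of 8015 tested genes. Windows of 3 sterol genes that rose in WMW-H versus AOM/DSS and of Fasn, which fell, are printed in the direction of transcription, with CCAAT or its reverse complement ATTGG in capitals and, in Hmgcs1, also the SREBP element, whose first base is at -137 from the start site.
Hmgcs1, chr13:119690101-119690400, plus strand: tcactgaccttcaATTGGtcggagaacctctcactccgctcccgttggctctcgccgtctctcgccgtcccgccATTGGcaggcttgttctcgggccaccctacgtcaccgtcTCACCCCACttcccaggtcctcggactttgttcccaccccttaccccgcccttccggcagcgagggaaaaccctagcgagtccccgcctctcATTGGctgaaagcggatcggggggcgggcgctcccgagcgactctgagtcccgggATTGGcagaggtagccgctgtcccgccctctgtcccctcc
Cyp51, chr5:4104648-4104947, minus strand: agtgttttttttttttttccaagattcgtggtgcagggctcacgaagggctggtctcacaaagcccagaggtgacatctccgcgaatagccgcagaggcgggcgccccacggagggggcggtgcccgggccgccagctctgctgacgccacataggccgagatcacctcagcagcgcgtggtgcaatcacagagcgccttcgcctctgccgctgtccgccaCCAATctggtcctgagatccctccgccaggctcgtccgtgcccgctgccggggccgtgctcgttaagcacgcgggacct
Msmo1, chr8:64733529-64733828, minus strand: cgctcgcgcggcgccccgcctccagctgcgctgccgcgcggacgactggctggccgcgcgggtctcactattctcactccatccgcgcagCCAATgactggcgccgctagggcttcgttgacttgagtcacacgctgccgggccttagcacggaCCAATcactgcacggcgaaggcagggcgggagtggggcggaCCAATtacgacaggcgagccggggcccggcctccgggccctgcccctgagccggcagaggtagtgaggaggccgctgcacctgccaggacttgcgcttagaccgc
Fasn, chr11:120824498-120824797, minus strand: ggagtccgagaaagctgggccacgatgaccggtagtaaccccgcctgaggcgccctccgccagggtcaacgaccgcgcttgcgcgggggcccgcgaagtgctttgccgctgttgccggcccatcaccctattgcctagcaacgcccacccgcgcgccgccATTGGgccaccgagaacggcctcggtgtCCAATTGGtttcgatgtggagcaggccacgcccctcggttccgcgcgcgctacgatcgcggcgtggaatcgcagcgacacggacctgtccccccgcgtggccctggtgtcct
Hmgcs1 has 4 matches to CCAAT, Msmo1 has 3, Cyp51 has 1 and Fasn has 3, of which neighbours can overlap. The sterol genes that went against their arm carried the box as well, since Mvd, Tm7sf2, Dhcr7, Ebp, Pmvk and Srebf2 were among the 16, so the box was present in genes of either direction. A match is a description of the letters, not a bound site.

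**Figure D3:**
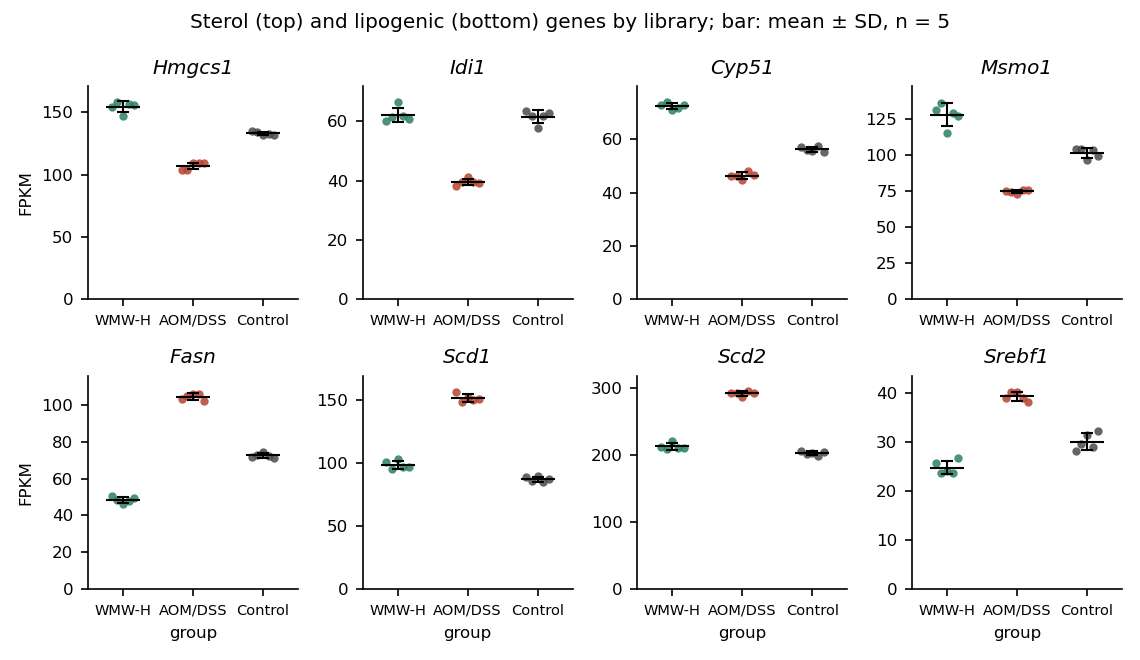
FPKM of 4 sterol genes (top row) and 4 lipogenic genes (bottom row) in each library of WMW-H, AOM/DSS and Control from left to right; points are libraries and bars the mean ± SD of 5. AOM/DSS libraries are the lowest for Hmgcs1, Idi1, Cyp51 and Msmo1 and the highest for Fasn, Scd1, Scd2 and Srebf1.

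The lipogenic arm begins with the supply of acetyl-CoA and NADPH. Acly, ATP citrate lyase, which makes cytosolic acetyl-CoA for both arms, had 80.0, 80.5, 80.2, 78.9 and 82.7 FPKM in WMW-H, 98.4, 99.5, 99.4, 102 and 98.2 FPKM in AOM/DSS and 95.8, 95.5, 94.1, 97.6 and 98 FPKM in Control. WMW-H libraries were well below the others, and the lowest AOM/DSS library stood just above the highest Control library. Acly fell by 0.30 in WMW-H versus AOM/DSS (adjusted p = 1.37e-09) and by 0.25 in WMW-H versus Control (adjusted p = 1.68e-08). In AOM/DSS versus Control it gave 0.05 (adjusted p = 0.0516), and -0.07 with median-of-ratios scaling, so no direction is given. Me1, malic enzyme, a source of NADPH, had 25.1, 26.8, 23.8, 25.3 and 24.6 FPKM in WMW-H, 25.5, 25.9, 25.2, 24.0 and 25.3 FPKM in AOM/DSS and 18.6, 18.7, 18.6, 18.6 and 18.9 FPKM in Control. Control libraries lay below the other 10, and WMW-H and AOM/DSS overlapped. Me1 rose in AOM/DSS versus Control (0.41 ± 0.03, adjusted p = 5.57e-09) and in WMW-H versus Control (0.41 ± 0.03, adjusted p = 1.18e-08), and was not called in WMW-H versus AOM/DSS (adjusted p = 0.91). Unlike the other lipogenic genes that rose in AOM/DSS, Me1 thus had no called fall under WMW-H; whether its change differs from theirs was not tested.

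Chain synthesis rests on Acaca and Fasn. Fasn, fatty acid synthase, had 50.4, 48.4, 46.4, 47.9 and 49.2 FPKM in WMW-H, 103, 105, 106, 106 and 102 FPKM in AOM/DSS and 71.6, 72.9, 74.3, 72.5 and 71.4 FPKM in Control. The 3 groups were far apart, AOM/DSS highest and WMW-H lowest, and WMW-H was below Control in every library. Fasn rose by 0.52 ± 0.02 in AOM/DSS versus Control (adjusted p = 5.63e-12), and fell by 1.09 ± 0.02 in WMW-H versus AOM/DSS (adjusted p = 5.35e-16) and by 0.57 ± 0.02 in WMW-H versus Control (adjusted p = 3.6e-12). Its mean in WMW-H was 0.464 times that in AOM/DSS, and its change was the largest in size among the 29 genes in WMW-H versus AOM/DSS. Acaca, acetyl-CoA carboxylase, which makes malonyl-CoA, had 23.5, 17.9, 21.9, 20.6 and 20.4 FPKM in WMW-H, 32.0, 30.8, 32.1, 31.0 and 32.3 FPKM in AOM/DSS and 30.8, 23.3, 26.6, 23.7 and 21.8 FPKM in Control. AOM/DSS libraries were tightly grouped, while Control replicate 1 lay level with the lowest of them and the WMW-H and Control ranges overlapped. Acaca rose by 0.32 ± 0.08 in AOM/DSS versus Control (adjusted p = 0.00143) and fell by 0.58 ± 0.08 in WMW-H versus AOM/DSS (adjusted p = 4.29e-06). Its fall of 0.26 in WMW-H versus Control (adjusted p = 0.00812, 0.00182 to 0.0929 over 27 alternatives) was not called by an exact rank-sum test.

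The next genes lengthen and desaturate the new chains. Scd1, a stearoyl-CoA desaturase, had 101, 94.9, 103, 97.2 and 96.9 FPKM in WMW-H, 156, 148, 152, 150 and 151 FPKM in AOM/DSS and 88.7, 85.9, 89.3, 84.9 and 87.0 FPKM in Control. The groups were separate, AOM/DSS far above and WMW-H somewhat above Control. Scd1 rose 1.74-fold in AOM/DSS versus Control (log2 change 0.79 ± 0.02, adjusted p = 2.07e-14) and fell by 0.62 ± 0.02 in WMW-H versus AOM/DSS (adjusted p = 1.7e-12). It stayed 0.17 higher in WMW-H than in Control (adjusted p = 1.45e-05). Scd2, its close paralog, had 212, 209, 221, 211 and 211 FPKM in WMW-H, 293, 292, 286, 295 and 293 FPKM in AOM/DSS and 206, 201, 203, 198 and 205 FPKM in Control, the highest levels of the 29 genes. AOM/DSS libraries were the highest, and the lowest WMW-H library was just above the highest Control library. Scd2 rose by 0.53 in AOM/DSS versus Control (adjusted p = 1.86e-13) and fell by 0.46 in WMW-H versus AOM/DSS (adjusted p = 3.2e-12). Its difference of 0.07 in WMW-H versus Control (adjusted p = 0.00483) was 0.02 and not called under median-of-ratios scaling. The level of Scd1 per unit of Scd2 was 0.463 ± 0.0092 in WMW-H, 0.519 ± 0.0124 in AOM/DSS and 0.431 ± 0.00619 in Control (SD, n = 5 each), so the pair changed unequally. The log2 ratio differed by 0.27 in AOM/DSS versus Control, -0.17 in WMW-H versus AOM/DSS and 0.10 in WMW-H versus Control, each with an adjusted p of 0.00794 in a two-sided exact permutation test, the smallest that 5 against 5 can give. The division of any reads shared by these close paralogs is not described, so the level of each is uncertain to that extent. Elovl6, which lengthens palmitate, went against its arm, with 17.2, 18, 17.1, 16.5 and 16.2 FPKM in WMW-H, 15.1, 14.1, 13.7, 16.2 and 14.2 FPKM in AOM/DSS and 16.4, 15.9, 15.7, 15.8 and 14.8 FPKM in Control. WMW-H libraries lay above or level with the highest AOM/DSS library, and Control lay across both. Elovl6 rose by 0.20 in WMW-H versus AOM/DSS (adjusted p = 0.000756). Its call in WMW-H versus Control (0.11, adjusted p = 0.0482) was kept in 10 of 27 alternatives, with adjusted p from 0.0288 to 0.326, and was lost when any of 10 libraries, WMW-H replicate 3 among them, was left out.

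Srebf1, which encodes the factor that drives lipogenic genes, had 25.7, 23.7, 24.2, 23.7 and 26.8 FPKM in WMW-H, 39.1, 40.3, 40.3, 39.1 and 38.3 FPKM in AOM/DSS and 28.3, 29.7, 31.5, 29 and 32.4 FPKM in Control. The groups did not overlap, with AOM/DSS highest and WMW-H lowest, the same order as for Fasn. Srebf1 rose by 0.38 ± 0.04 in AOM/DSS versus Control (adjusted p = 4.74e-07), and fell by 0.65 ± 0.04 in WMW-H versus AOM/DSS (adjusted p = 6.23e-10) and by 0.27 ± 0.04 in WMW-H versus Control (adjusted p = 3.18e-05). The table gives 1 value for the gene, so its transcript forms are not separated.

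Fat tissue along the colon also expresses lipogenic genes, so adipocyte markers were read beside them. The 12 markers summed to 163 to 183 FPKM in WMW-H, 255 to 261 FPKM in AOM/DSS and 358 to 383 FPKM in Control, and none was at 0 in every library of a group. Of the 11 tested, 0 rose and 9 fell in AOM/DSS versus Control, where 20.6% of all genes fell, and 0 rose and 11 fell in WMW-H versus AOM/DSS, where 40.9% fell. At an unadjusted p under 0.05, and by the exact rank-sum test, 0 markers rose in either comparison. In AOM/DSS versus Control the markers were lower, and Fasn, Scd1, Scd2 and Srebf1 were higher. In WMW-H versus AOM/DSS both the markers and these genes were lower. The part of fat in the lipogenic changes was not tested in either comparison. Macrophage markers summed to 571 to 605 FPKM in WMW-H, 703 to 719 FPKM in AOM/DSS and 326 to 351 FPKM in Control, the highest in AOM/DSS. All AOM/DSS libraries were also the highest for 5 of the 8 lipogenic genes, though for Acly, 1 of these, only narrowly and without a call against Control. Goblet cell markers summed to 9579 to 9732 FPKM in WMW-H, 7677 to 7831 FPKM in AOM/DSS and 11642 to 11895 FPKM in Control. Absorptive colonocyte markers summed to 6694 to 6825 FPKM in WMW-H, 5546 to 5593 FPKM in AOM/DSS and 7560 to 7780 FPKM in Control. Of the 12 colonocyte markers 3 rose and 9 fell in AOM/DSS versus Control, but 5 rose and 6 fell in WMW-H versus AOM/DSS, so most of them did not follow the sum in the second comparison. The part of these cells in the changes was not tested. Proliferation markers summed to 200 to 224 FPKM in WMW-H, 200 to 208 FPKM in AOM/DSS and 199 to 208 FPKM in Control, so the sums overlapped in all groups. Single markers differed: of the 10, 2 rose and 2 fell in AOM/DSS versus Control, where 45.5% of all genes rose and 20.6% fell. In WMW-H versus AOM/DSS 3 rose and 4 fell, beside 25.9% and 40.9% of all genes.

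**Figure D4:**
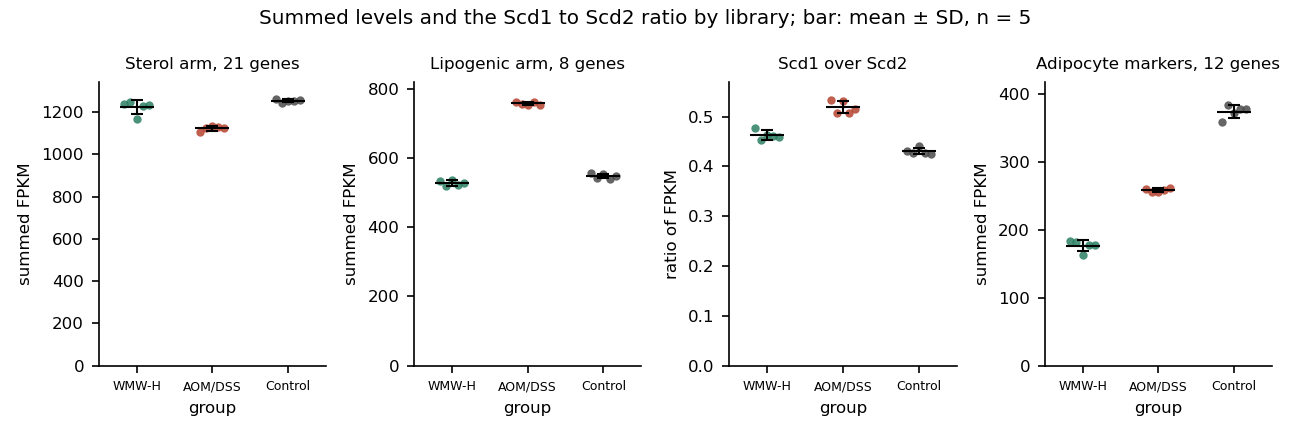
Summed FPKM of the 21 sterol genes, of the 8 lipogenic genes and of the 12 adipocyte markers, and the ratio of Scd1 to Scd2, in each library of WMW-H, AOM/DSS and Control from left to right; points are libraries and bars the mean ± SD of 5. The lipogenic sum is 755 to 763 FPKM in AOM/DSS, above the 520 to 537 FPKM of WMW-H and the 541 to 556 FPKM of Control, while the adipocyte sum is highest in Control.

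Summed over members, the sterol arm stood at 1224 ± 31.2 FPKM in WMW-H, 1124 ± 12 FPKM in AOM/DSS and 1253 ± 7.54 FPKM in Control (SD, n = 5 each). WMW-H replicate 3 had 1169 FPKM, the lowest of its group, and the other 4 had 1230 to 1247 FPKM. All WMW-H and Control sums lay above all AOM/DSS sums. The lipogenic arm stood at 528 ± 7.6 FPKM in WMW-H, 758 ± 3.85 FPKM in AOM/DSS and 548 ± 6.61 FPKM in Control, so the WMW-H sums lay below every Control sum. Per library, the mean log2(FPKM + 1) of the sterol genes minus that of the lipogenic genes was 0.044 ± 0.0459 in WMW-H, -0.482 ± 0.0196 in AOM/DSS and 0.022 ± 0.026 in Control. On this difference WMW-H and Control overlapped and AOM/DSS lay apart, although single genes differed between WMW-H and Control. A common factor on a library's FPKM largely cancels from it. Without WMW-H replicate 3, the counts of sterol genes called stayed as given in all 3 comparisons; 7 lipogenic genes instead of 6 rose in AOM/DSS versus Control and 3 instead of 4 rose in WMW-H versus Control.

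Genes around the members were taken from 5 lists of 82 genes. Of 12 genes that process or control SREBP, 6 rose and 2 fell in AOM/DSS versus Control (45.5% and 20.6% of all genes), and 3 rose and 3 fell in WMW-H versus AOM/DSS (25.9% and 40.9% of all genes). These shares are near or below those of all genes, so the list as a whole did not stand out and single genes are given. Mbtps1, the first of the Golgi proteases that free SREBP, averaged 32.4 ± 0.467 FPKM in WMW-H, 46.2 ± 0.537 FPKM in AOM/DSS and 34.6 ± 1.1 FPKM in Control. It rose by 0.41 in AOM/DSS versus Control (adjusted p = 3.22e-10) and fell by 0.50 in WMW-H versus AOM/DSS (adjusted p = 3.43e-11). Scap, the escort of SREBP, averaged 22.9 ± 1.45 FPKM in WMW-H, 30.6 ± 1.18 FPKM in AOM/DSS and 24.0 ± 1.86 FPKM in Control, with called changes of 0.34 and -0.41 in the same comparisons. Mbtps2, the second protease, rose in AOM/DSS versus Control (0.39, adjusted p = 0.00147) and was not called in WMW-H versus AOM/DSS (-0.08, adjusted p = 0.443). Rnf139, a membrane ubiquitin ligase, fell by 0.19 in AOM/DSS versus Control (adjusted p = 0.00414) and rose by 0.38 in WMW-H versus AOM/DSS (adjusted p = 6.52e-06). Ubxn4, of the degradation machinery of the endoplasmic reticulum, rose by 0.29 in WMW-H versus AOM/DSS (adjusted p = 1.16e-06). Insig2, the paralog of Insig1, averaged 15.8 ± 1.85 FPKM in WMW-H, 13.3 ± 0.817 FPKM in AOM/DSS and 13.4 ± 2.22 FPKM in Control. Its call in WMW-H versus AOM/DSS (0.23, adjusted p = 0.0361) was kept in 17 of 27 alternatives.

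Of 17 tested genes of sterol uptake, storage and efflux, 13 rose and 1 fell in AOM/DSS versus Control, where 45.5% of all genes rose and 20.6% fell. In WMW-H versus AOM/DSS 1 rose and 10 fell, where 25.9% and 40.9% of all genes did. Rises outnumbered falls in the first comparison and falls outnumbered rises in the second, as among all genes. Cyp27a1, the sterol hydroxylase whose products activate LXR, averaged 7.61 ± 0.501 FPKM in WMW-H, 17.9 ± 0.871 FPKM in AOM/DSS and 6.30 ± 0.314 FPKM in Control. It rose 2.84-fold in AOM/DSS versus Control (log2 change 1.37 ± 0.05, adjusted p = 1.25e-13) and fell by 1.13 ± 0.05 in WMW-H versus AOM/DSS (adjusted p = 3.96e-12). Abca1, the exporter of cellular cholesterol and an LXR target, averaged 3.74 ± 0.242 FPKM in WMW-H, 6.63 ± 0.188 FPKM in AOM/DSS and 2.70 ± 0.182 FPKM in Control. It rose by 1.05 in AOM/DSS versus Control (adjusted p = 8.38e-12) and fell by 0.69 in WMW-H versus AOM/DSS (adjusted p = 3.6e-09). Npc1 and Npc2, which move cholesterol out of lysosomes, rose by 0.58 and 0.52 in AOM/DSS versus Control and fell by 0.53 and 0.41 in WMW-H versus AOM/DSS. Lipa, the lysosomal acid lipase, rose by 0.77 in AOM/DSS versus Control (adjusted p = 1.07e-11) and was not called in WMW-H versus AOM/DSS (-0.06, adjusted p = 0.151). Macrophages express several of these genes, and the macrophage sum given above was highest in AOM/DSS; its part in these changes was not tested.

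Of 12 tested enzymes that use isoprenoids outside sterol synthesis, 5 rose and 2 fell in AOM/DSS versus Control, and 3 rose and 4 fell in WMW-H versus AOM/DSS. These counts are near the shares of all genes (45.5% and 20.6%, then 25.9% and 40.9%) and are no result about the list. Pdss1, which makes the side chain of ubiquinone, averaged 15.8 ± 1.56 FPKM in WMW-H, 8.95 ± 0.707 FPKM in AOM/DSS and 14.8 ± 1.83 FPKM in Control. It fell by 0.66 in AOM/DSS versus Control (adjusted p = 8.68e-07) and rose by 0.76 in WMW-H versus AOM/DSS (adjusted p = 1.87e-07). Nus1 and Dhdds encode the subunits of the enzyme that makes dolichol chains, and they moved apart. Nus1 fell by 0.23 in AOM/DSS versus Control and rose by 0.53 in WMW-H versus AOM/DSS (adjusted p = 0.000116 and 6.91e-09). Dhdds rose by 0.21 in AOM/DSS versus Control and fell by 0.47 in WMW-H versus AOM/DSS (adjusted p = 0.00413 and 1.99e-06). Rabggta, a subunit of the prenyl transferase for Rab proteins, rose by 0.41 in AOM/DSS versus Control and fell by 0.59 in WMW-H versus AOM/DSS (adjusted p = 6.98e-06 and 9.24e-08). Fnta, a subunit of farnesyl transferase, rose by 0.16 in AOM/DSS versus Control (adjusted p = 0.00218) and was not called in WMW-H versus AOM/DSS (0.04, adjusted p = 0.457).

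Of 11 tested genes of fatty acid elongation and desaturation beyond the members, 8 rose and 0 fell in AOM/DSS versus Control (0 fell at an unadjusted p under 0.05 or by the exact rank-sum test), and 2 rose and 6 fell in WMW-H versus AOM/DSS. Among all genes 45.5% rose and 20.6% fell in the first comparison, and 25.9% rose and 40.9% fell in the second. Fads2 and Fads1, the desaturases of polyunsaturated fatty acids, were highest in AOM/DSS. Fads2 averaged 60.2 ± 3.54 FPKM in WMW-H, 109 ± 1.46 FPKM in AOM/DSS and 63.2 ± 2.13 FPKM in Control, with changes of 0.78 in AOM/DSS versus Control (adjusted p = 2.6e-12) and -0.85 in WMW-H versus AOM/DSS (adjusted p = 1.88e-12). Fads1 averaged 17.2 ± 0.95 FPKM in WMW-H, 24.5 ± 0.543 FPKM in AOM/DSS and 16.5 ± 0.845 FPKM in Control, with changes of 0.54 and -0.49 (adjusted p = 4.33e-09 and 2.22e-08). Neither was called in WMW-H versus Control (-0.07, adjusted p = 0.0887 for Fads2; 0.05, adjusted p = 0.268 for Fads1). Among the enzymes of the elongation cycle, Tecr rose by 0.18 in AOM/DSS versus Control and fell by 0.47 in WMW-H versus AOM/DSS (adjusted p = 0.000184 and 2.15e-09). Hsd17b12, the reductase of the same cycle, was not called in AOM/DSS versus Control (-0.05, adjusted p = 0.307) and rose by 0.56 in WMW-H versus AOM/DSS (adjusted p = 3.9e-09). Hacd2, the dehydratase, and Elovl7, an elongase, rose by 0.57 and 0.43 in AOM/DSS versus Control and were not called in WMW-H versus AOM/DSS (-0.05 and -0.08, adjusted p = 0.375 and 0.225). Elovl5, the elongase of polyunsaturated chains, rose by 0.16 in AOM/DSS versus Control (adjusted p = 0.00217) and gave 0.09 in WMW-H versus AOM/DSS (adjusted p = 0.0593).

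Of 21 genes of precursor supply, activation and glyceride synthesis, 8 rose and 6 fell in AOM/DSS versus Control, and 6 rose and 10 fell in WMW-H versus AOM/DSS. These counts too are near the shares of all genes (45.5% and 20.6%, then 25.9% and 40.9%). Thrsp, a lipogenic cofactor rich in fat and liver, averaged 6.34 ± 0.934 FPKM in WMW-H, 19.9 ± 1.85 FPKM in AOM/DSS and 13.3 ± 0.847 FPKM in Control. It rose by 0.55 in AOM/DSS versus Control (adjusted p = 2.14e-05) and fell by 1.52 in WMW-H versus AOM/DSS (adjusted p = 8.4e-11), the order of Fasn and Srebf1. Dgat2, which makes triglycerides, averaged 50.6 ± 2.83 FPKM in WMW-H, 65.7 ± 2.19 FPKM in AOM/DSS and 36.7 ± 1.49 FPKM in Control. It rose by 0.82 in AOM/DSS versus Control (adjusted p = 5.78e-12) and fell by 0.37 in WMW-H versus AOM/DSS (adjusted p = 2.82e-07). Mogat2, which re-esterifies monoglycerides in the gut, rose by 0.98 in AOM/DSS versus Control (adjusted p = 6.26e-09) and fell by 0.30 in WMW-H versus AOM/DSS (adjusted p = 0.00242). Acss2, which activates acetate for both arms, averaged 36.1 ± 1.01 FPKM in WMW-H, 39.8 ± 1.26 FPKM in AOM/DSS and 48.4 ± 1.19 FPKM in Control. It fell by 0.28 in AOM/DSS versus Control (adjusted p = 2.71e-07) and by 0.14 in WMW-H versus AOM/DSS (adjusted p = 0.00052). Slc25a1, the mitochondrial citrate carrier that feeds Acly, fell by 0.36 in WMW-H versus AOM/DSS (adjusted p = 7.99e-09) and was not called in AOM/DSS versus Control (adjusted p = 0.954). Acsl4, an acyl-CoA synthetase, rose by 0.22 in AOM/DSS versus Control and fell by 0.29 in WMW-H versus AOM/DSS (adjusted p = 0.000959 and 5.49e-05). Mlx, the partner of the carbohydrate-sensing factor ChREBP, fell by 0.27 in AOM/DSS versus Control and rose by 0.17 in WMW-H versus AOM/DSS (adjusted p = 4.63e-07 and 9.38e-05). Acacb, the mitochondrial paralog of Acaca, averaged 5.71 ± 0.62 FPKM in WMW-H, 6.07 ± 0.512 FPKM in AOM/DSS and 5.64 ± 0.259 FPKM in Control and was called in no comparison (adjusted p = 0.244 in AOM/DSS versus Control and 0.316 in WMW-H versus AOM/DSS).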

How the data were processed

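RNA sequencing of colon gave 15 libraries, 5 in each of 3 groups, grouped by the treatment label. Per the labels' protocols, messenger RNA was captured on oligo(dT) beads, and libraries from the NEBNext Ultra kit were read on a NovaSeq 6000. Tools listed in the submitters' processing notes are HISAT2, RSEM, StringTie 1.3.1, Bowtie2 2.2.8 and fastp 0.18.0, with no order or settings; the genome build is not given in the sources used here. The authors deposited FPKM values for 22063 genes in 1 table, with library totals of 507895 to 535410. Depth was read from the steps between low values, of which 86.4% to 90.1% came within 0.1 of a whole fragment at the depth chosen.

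Tests covered the 12917 genes that reached 1 FPKM in 5 or more libraries, on log2(FPKM + 1), a scale that understates changes of low genes, with limma 3.58.1 in R 4.3.3. All 15 libraries entered 1 fit with a mean per group and empirical Bayes moderation with a trend. P-values are two-sided and were adjusted over every tested gene by Benjamini-Hochberg, with calls at an adjusted p under 0.05. The Scd1 to Scd2 ratio was compared by exact permutation (SciPy 1.17.1), adjusted over 3 comparisons. The limma step was run on simulated data with few changed genes and no scaling shift, so that run does not cover the dependence on scaling given below. The members and all lists were chosen with earlier results of these data known, so arms are described by counts and medians, with no test over a list.

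All 29 members are named. Values per library are given for the 2 members of each role group with the smallest p over the 3 comparisons, and for called members that went against their arm. From each companion list come the up to 4 genes with the smallest p in AOM/DSS versus Control and in WMW-H versus AOM/DSS, plus Acss2, Insig2, Fads1, Fads2, Elovl5 and Acacb. Of the 17 marker lists, those of squamous epithelium, hepatocytes, enteric glia, B and T cells, Paneth cells and small-intestinal enterocytes are given in the closing section. Exon overlaps come from a mouse gene annotation, and promoter windows from RefSeq on GRCm38.p6. Alternatives were other pseudocounts (0.1, 0.01), filters, scalings, fits and tests, a replicate block, and leaving out each library. Some genes of these pathways are not reported here.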

Additional observations from a re-analysis of the deposited data

Results flagged for a closer look

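In 5 of 87 combinations of a member gene and a group, 1 library stood far from the other 4 of its group, by a rule that chance meets in about 1 of 20 groups. Idi1 had 66.4 FPKM in WMW-H replicate 3, above the 60.1 to 61.8 FPKM of the other WMW-H libraries, and 57.7 FPKM in Control replicate 3, below the 61.7 to 63.3 FPKM of the other Control libraries. Scd2 had 221 FPKM in WMW-H replicate 3, above the 209 to 212 FPKM of the others. Pmvk had 25 FPKM in AOM/DSS replicate 1, below the 28.8 to 29.2 FPKM of the others, and this library alone made AOM/DSS overlap with WMW-H. Mvk had 42.8 FPKM in Control replicate 3, above the 38.3 to 38.8 FPKM of the others. The calls of these 4 genes given in the report were kept when the library in question was left out.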

How the results depend on the processing

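Over 27 alternatives, directions held for the called members except Srebf2 in AOM/DSS versus Control. With median-of-ratios scaling its change was -0.03, and Acly gave -0.07, Insig1 -0.11, Acsl1 -0.11 and Ubxn4 -0.10 in that comparison, against 0.00 to 0.09 as reported. With quantile scaling Insig1 gave -0.10, Acsl1 -0.14, Ubxn4 -0.14 and Lpin3 -0.16 in AOM/DSS versus Control, and Me1 gave 0.08 in WMW-H versus AOM/DSS. Over all genes, scaling moved the share of calls that were higher in AOM/DSS versus Control, at 68.9% as reported, to 51.4% with median-of-ratios and 47.9% with quantile scaling. In WMW-H versus AOM/DSS the share was 38.8% as reported and 49.4% with quantile scaling, and in WMW-H versus Control 59.5% as reported and 48.6%. Sterol genes called higher in AOM/DSS versus Control numbered 2 with either scaling, and Fdft1, Hsd17b7 and Insig1 joined the sterol genes called lower. With TPM, Acat2 and Nsdhl left those called lower. In WMW-H versus AOM/DSS, Fdft1 and Nsdhl left the sterol genes called higher with TPM or with equal totals without other-tissue genes. Acat2 joined those called lower with TPM, and Mvk those called higher with quantile scaling. Lipogenic genes called lower in AOM/DSS versus Control numbered 2 with median-of-ratios and 1 with quantile scaling (0 to 1 on leaving out a library). Lipogenic genes called higher numbered 2 in WMW-H versus AOM/DSS with quantile scaling, and 2 in WMW-H versus Control with median-of-ratios scaling or equal totals without other-tissue genes. Medians relative to all genes moved without a filter to -0.20 (sterol) and 0.35 (lipogenic) in AOM/DSS versus Control, and to 0.12 and -0.50 in WMW-H versus AOM/DSS, since more low genes then enter the median of all genes. Quantile scaling gave lipogenic medians of -0.50 in WMW-H versus AOM/DSS and -0.10 in WMW-H versus Control, the last of which ran from -0.16 to -0.10 on leaving out a library. The cause of the scaling shifts was not tested. Replicate numbers did not pair the libraries (correlations of same-numbered deviations -0.0472 to 0.0298, 2 of 15 best with their own number); with a replicate block, 86 of 87 member calls were unchanged, counts of members called were 23, 26 and 22, and the call of Elovl6 in WMW-H versus Control was lost (adjusted p = 0.0528, 0.0288 to 0.326 over alternatives).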

Other observations

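Marker lists of other cells were read for their levels only. Paneth cell markers summed to 1231 to 1363 FPKM in WMW-H, 1300 to 1368 FPKM in AOM/DSS and 1256 to 1293 FPKM in Control, although of the 8 tested 7 rose and 1 fell in AOM/DSS versus Control. Fibroblast markers summed to 486 to 529 FPKM in WMW-H, 428 to 446 FPKM in AOM/DSS and 282 to 289 FPKM in Control. B and plasma cell markers summed to 515 to 570 FPKM in WMW-H, 366 to 402 FPKM in AOM/DSS and 719 to 745 FPKM in Control, although of the 8 tested 2 rose and 5 fell in WMW-H versus AOM/DSS. T cell markers summed to 20.9 to 23.2 FPKM in WMW-H, 23.8 to 29.1 FPKM in AOM/DSS and 30.3 to 33.3 FPKM in Control. Enteric glia and neuron markers summed to 24.4 to 30.2 FPKM in WMW-H, 25.2 to 27.1 FPKM in AOM/DSS and 40.3 to 45.1 FPKM in Control. Small-intestinal enterocyte markers summed to 154 to 159 FPKM in WMW-H, 100 to 109 FPKM in AOM/DSS and 183 to 201 FPKM in Control. Hepatocytes also make cholesterol and fatty acids, and their markers summed to 9.8 to 21.3 FPKM in WMW-H, 16.8 to 19.7 FPKM in AOM/DSS and 4.04 to 9.69 FPKM in Control. Squamous epithelium markers summed to 3.35 to 4.33 FPKM in WMW-H, 11.4 to 14.1 FPKM in AOM/DSS and 0.31 to 1.44 FPKM in Control. The part of these cells in the changes of the sterol and lipogenic genes was not tested.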
